A study of Mus musculus with 12 samples.

Results

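A set of 10 endothelial genes, which encode a ligand, receptors, junction proteins and a surface mucin, was followed in mouse embryonic stem cells (ESCs) and embryoid bodies (EBs). They were Edn1, Kdr, Flt1, Nrp1, Tek, Tie1, S1pr3, Cdh5, Pecam1 and Emcn, 10 of the 19938 genes that had an array feature of their own. Members were chosen by gene symbol, and where a symbol had several features the one with the highest mean would have been kept, but each of these 10 had 1 feature. All 10 passed the signal floor of 45 (log2 5.49) on at least 1 of the 12 arrays, as did 10880 genes in all. Emcn passed only on 3 EB arrays of the knockouts and Edn1 only on the 2 EB HP1αKO arrays, so these had to differ between groups once they were tested.

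Samples were HP1βKO cells (Cbx1-/-, lacking HP1β), HP1αKO cells (Cbx5-/-, lacking HP1α) and WT cells, both as EBs after 7 days in suspension without leukaemia inhibitory factor and as ESCs, with 2 arrays labelled as biological replicates in each of the 6 groups. HP1α and HP1β are chromodomain proteins of heterochromatin. ESCs were grown on mitomycin-treated feeder fibroblasts, and SSEA1-positive cells were taken with magnetic beads before RNA extraction or before EB formation. The labels give R1 as the line of both knockouts and HM1 as that of WT, while the study's methods call HM1 the littermate control, so line and genotype cannot be told apart in a comparison of a knockout with WT. The labels do not say that replicates were grown as separate cultures, so p-values measure only the spread between these arrays. An EB is a mixture of cell types, and in such bulk RNA fewer endothelial cells and less RNA per endothelial cell cannot be told apart.

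Endothelial cells line blood vessels and arise in the embryo from mesodermal progenitors that carry the VEGF receptor Kdr. VEGF acts through Kdr, its high-affinity receptor Flt1 restrains that signal by binding the ligand, and Nrp1 serves as a co-receptor. Angiopoietins act through Tek, with Tie1 as its partner receptor, while Cdh5 and Pecam1 hold neighbouring cells together and Emcn coats the cell surface. EBs form such cells together with primitive blood and beating heart muscle.

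The promoter windows around the RefSeq start sites of build GRCm38.p6 were matched for 8 of the 10 genes, not for Cdh5 and Pecam1. Printed here are those of S1pr3 and Emcn, which were higher in EBs of both knockouts, and of Flt1, which was lower in both. That of Edn1, which was above the floor only in EB HP1αKO, is printed as well. Capitals mark matches, on either strand, to 4 short motifs. The motif searched for factors of the ETS family, which are central to endothelial gene expression, was CCGGAA. For the GATA family, active in blood and heart, it was AGATAA. For the SOX family, whose members help to specify arteries, it was AACAAT. The TATA box, where transcription machinery can assemble, was searched as TATAAA. The motifs did not overlap each other in these windows.
S1pr3: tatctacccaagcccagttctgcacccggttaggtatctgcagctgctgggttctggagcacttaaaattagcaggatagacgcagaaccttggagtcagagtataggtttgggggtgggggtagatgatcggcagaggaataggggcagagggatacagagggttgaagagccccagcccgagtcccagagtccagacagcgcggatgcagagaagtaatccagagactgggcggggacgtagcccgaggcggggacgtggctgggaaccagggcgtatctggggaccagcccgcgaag
Emcn: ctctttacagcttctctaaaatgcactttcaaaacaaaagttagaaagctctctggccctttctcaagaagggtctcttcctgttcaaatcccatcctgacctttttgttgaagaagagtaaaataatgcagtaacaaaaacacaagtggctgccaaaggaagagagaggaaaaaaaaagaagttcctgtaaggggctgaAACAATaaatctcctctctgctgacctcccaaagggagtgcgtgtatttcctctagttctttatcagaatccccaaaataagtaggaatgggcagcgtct
Flt1: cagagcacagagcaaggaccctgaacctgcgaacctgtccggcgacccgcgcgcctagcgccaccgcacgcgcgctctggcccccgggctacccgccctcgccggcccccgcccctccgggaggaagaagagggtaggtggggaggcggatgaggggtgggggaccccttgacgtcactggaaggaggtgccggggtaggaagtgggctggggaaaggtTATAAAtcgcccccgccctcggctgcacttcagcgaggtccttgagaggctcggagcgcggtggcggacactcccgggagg
Edn1: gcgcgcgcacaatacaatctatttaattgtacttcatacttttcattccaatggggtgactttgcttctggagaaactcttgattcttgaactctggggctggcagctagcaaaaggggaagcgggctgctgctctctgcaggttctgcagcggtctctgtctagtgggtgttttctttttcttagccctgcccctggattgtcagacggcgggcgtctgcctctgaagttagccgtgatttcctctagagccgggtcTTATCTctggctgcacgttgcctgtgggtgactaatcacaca

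These windows lie at chr13:51408368-51408667 on the + strand for S1pr3, chr3:137340828-137341127 on the + strand for Emcn, chr5:147725962-147726261 on the - strand for Flt1 and chr13:42301226-42301525 on the + strand for Edn1. The S1pr3 window held none of the 4 motifs. The Emcn window held the SOX motif at position -50 from the start, the Flt1 window the TATA motif at -31 and the Edn1 window the GATA motif, on the opposite strand, at position 9 after it. Among the other matched members, Kdr held the ETS motif, Tek held the GATA and SOX motifs, and Tie1 and Nrp1 held none. Of all 32851 promoters of that length, 14.9% held the ETS, 11.2% the GATA, 10.7% the SOX and 13.6% the TATA motif. The Emcn window was poor in G and C at 41.0% and the Flt1 window rich at 70.7%, against a median of 52.7% over all promoters. A match describes letters only, and the 2 genes that shared a direction, S1pr3 and Emcn, shared no motif of the 4.

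The targeted genes checked the labels. In EBs Cbx1 stood at 7.73 and 7.67 in HP1βKO, against 9.36 to 9.65 in the other 4 arrays, and Cbx5 at 9.20 and 9.21 in HP1αKO, against 10.26 to 10.40 in the others. Among ESCs, the library labelled HP1αKO 2 had Cbx5 at 9.99 and the library labelled WT 2 had it at 8.29, each against its label, so values that use these 2 libraries are also given without them. Replicates lay closer together in EBs, where the SD of the difference between both arrays over genes was 0.127 to 0.196, than in ESCs, where it was 0.391 to 0.574 (log2). Comparisons within EBs or within ESCs therefore took their spread from the 6 arrays of that state. Fits without the 2 libraries named above keep 1 array each in ESC WT and ESC HP1αKO, the groups with the widest replicate differences (0.574 and 0.496). Calls from those fits rest on that single array. Markers that define undifferentiated cells were abundant in ESCs and the summed signal of 8 of them was 777 to 3789 in EBs, against 13990 to 21980 in ESCs.

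**Figure D1:**
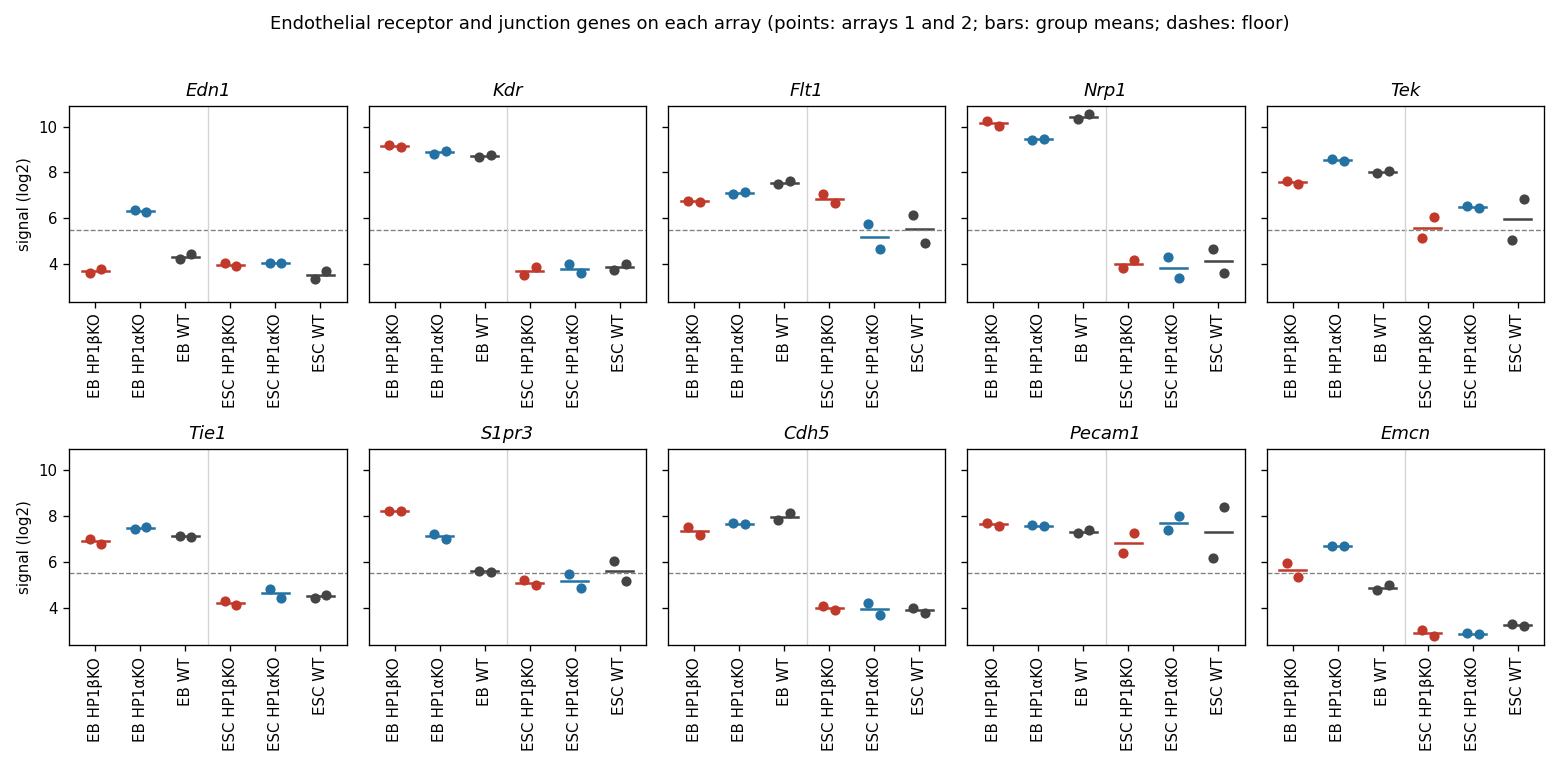
Log2 signal of the 10 genes on each of the 12 arrays, with EB groups on the left and ESC groups on the right of each panel; points are single arrays, short bars are group means and the dashed line is the floor at log2 5.49. Kdr, Nrp1, Tie1 and Cdh5 lie under the floor in every ESC array and above it in every EB array, and S1pr3 separates the 3 EB groups.

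Most of the 10 genes were higher in EBs than in ESCs. In HP1βKO 7 were higher, in HP1αKO 9 and in WT 8, and 0 were lower in any genotype (limma, adjusted p under 0.05). The count in WT includes Emcn and Edn1, which were under the floor in both states, and with the spread taken from the compared groups only it was 6, without Tek (adjusted p = 0.0682) and Edn1 (adjusted p = 0.0501). Among all genes tested, 22% were higher and 15.1% lower in HP1βKO, 25% and 16.5% in HP1αKO, and 22% and 14.2% in WT. Kdr, Cdh5, Tie1 and Nrp1 passed the floor only on EB arrays, so their direction was built in by the floor. Emcn passed only on EB arrays of the knockouts and Edn1 only on those of HP1αKO, so there too a higher EB level was built in. The floor fixed no direction for either gene in WT, nor for Edn1 in HP1βKO. The median difference of the 10 genes was 2.73 in HP1βKO, 2.55 in HP1αKO and 2.04 in WT on the log2 scale, against 0.04, 0.05 and 0.05 over all genes. The counts and medians include genes that passed the floor only on EB arrays, with unmeasured ESC levels. They cannot be read against the values over all genes. Without the 2 libraries named above, which leaves 1 array in ESC WT, the WT difference was 1.14 for Pecam1 and -0.47 for S1pr3.

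Nrp1, the co-receptor of VEGF and semaphorins, was under the floor in ESCs and bright in EBs. It stood at 10.26 and 10.04 in EB HP1βKO, against 3.83 and 4.19 in ESC HP1βKO. In HP1αKO it stood at 9.42 and 9.47 in EBs, against 4.32 and 3.40 in ESCs, and in WT at 10.34 and 10.53 in EBs, against 4.68 and 3.63 in ESCs. All ESC arrays were under the floor and the states did not overlap, so EBs were at least 25.2-fold higher in HP1βKO, at least 15.5-fold in HP1αKO and at least 30.7-fold in WT, taking the floor as the ESC level. The limma differences were 6.14, 5.59 and 6.28, each with a standard error of 0.36.

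Kdr, the main signalling receptor of VEGF, showed the same split. EBs held 9.20 and 9.12 in HP1βKO, 8.82 and 8.93 in HP1αKO and 8.66 and 8.77 in WT, while the 6 ESC arrays ranged between 3.54 and 4.02. All EB arrays lay above all ESC arrays, and EBs were at least 12.7-fold, 10.4-fold and 9.34-fold higher in HP1βKO, HP1αKO and WT. Cdh5, the VE-cadherin of endothelial adherens junctions, held 7.52 and 7.18 in EB HP1βKO, 7.68 and 7.65 in EB HP1αKO and 7.81 and 8.12 in EB WT, with 3.70 to 4.19 in the ESC arrays. It was at least 3.64-fold higher in EBs of HP1βKO, 4.51-fold in HP1αKO and 5.55-fold in WT. Tie1, the orphan partner of Tek, followed the same pattern, with EBs at least 2.63-fold, 3.93-fold and 3.09-fold higher.

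Tek, the angiopoietin receptor, was higher in EBs by 1.98 ± 0.48 in HP1βKO, 2.03 ± 0.48 in HP1αKO and 2.07 ± 0.48 in WT (log2 difference ± SE). Its ESC arrays spread widely, from 5.07 in WT 1 to 6.85 in the library labelled WT 2. Without that library the WT difference was 2.96, and without WT 1 it was 1.18. Single arrays decided the Tek calls: in HP1βKO the call was lost without EB array 1 (adjusted p = 0.0639), EB array 2 (adjusted p = 0.051) or ESC array 1 (adjusted p = 0.0728), in HP1αKO without EB array 1 (adjusted p = 0.0503), and in WT without EB array 2 (adjusted p = 0.0594). Flt1, the decoy receptor of VEGF, was higher in EBs by 1.90 ± 0.40 in HP1αKO (adjusted p = 0.00514) and 2.02 ± 0.40 in WT (adjusted p = 0.00471). In HP1βKO the difference was -0.11 ± 0.40 (adjusted p = 0.852), with 6.77 and 6.73 in EBs, against 7.04 and 6.68 in ESCs, which overlap.

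Pecam1, an adhesion molecule of endothelial contacts that undifferentiated mouse ESCs are also known to carry, was measured in both states. EBs held 7.70 and 7.56 in HP1βKO, 7.61 and 7.54 in HP1αKO and 7.24 and 7.38 in WT. ESCs held 6.39 and 7.27 in HP1βKO, 7.39 and 7.996 in HP1αKO and 6.17 and 8.40 in WT. Its difference between EBs and ESCs did not pass in any genotype (adjusted p = 0.312 in HP1βKO, 0.89 in HP1αKO and 0.975 in WT, limma). The WT value rested on which ESC array was kept: without the library labelled WT 2 it was 1.14 (adjusted p = 0.0394), and without WT 1 it was -1.09 (adjusted p = 0.0344).

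Edn1, Emcn and S1pr3 lay under or just over the floor in EB WT. Edn1 encodes endothelin 1, a vasoconstrictor peptide secreted by endothelium, and was above the floor only in EB HP1αKO, at least 1.79-fold higher than in ESC HP1αKO. Its difference between EBs and ESCs was -0.27 in HP1βKO (adjusted p = 0.194), 2.27 in HP1αKO (adjusted p = 7.08e-06) and 0.78 in WT (adjusted p = 0.00405), and in HP1βKO and WT both states were under the floor. Emcn, the sialomucin endomucin, was at least 2.29-fold higher in EBs than in ESCs of HP1αKO and at least 1.12-fold in HP1βKO, where 1 of 2 EB arrays was above the floor. S1pr3, a receptor for sphingosine 1-phosphate found on endothelium and smooth muscle, was at least 6.65-fold higher in EBs of HP1βKO and at least 3.07-fold in HP1αKO. In WT, S1pr3 held 5.60 and 5.57 in EBs, against 6.05 and 5.15 in ESCs, a difference of -0.02 ± 0.28 (adjusted p = 0.968).

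**Figure D2:**
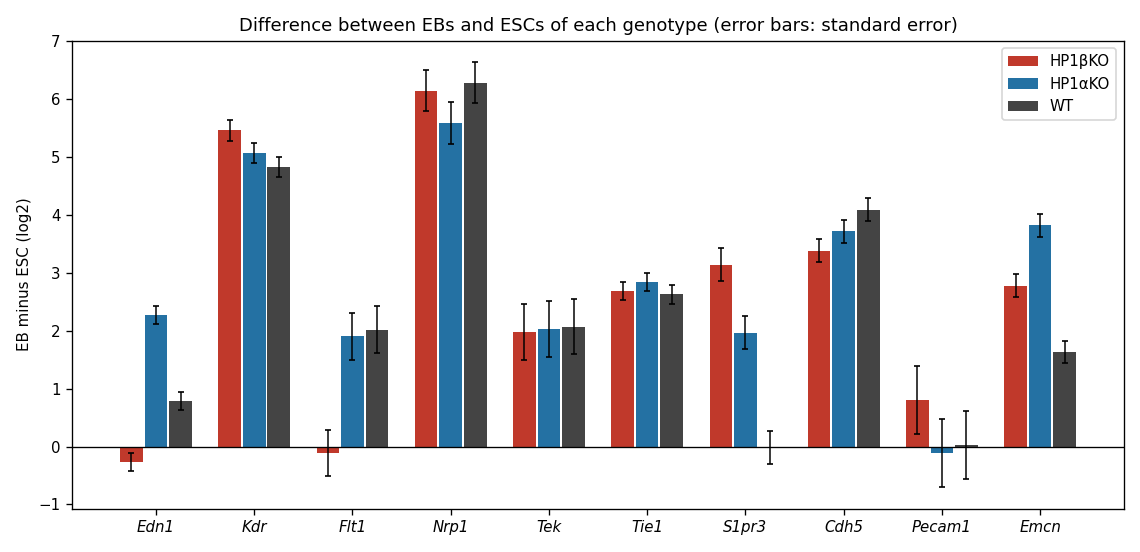
Log2 difference between EBs and ESCs for each gene, in HP1βKO, HP1αKO and WT; bars start at 0 and error bars are standard errors of the limma fit on 12 arrays. Bars of Nrp1, Kdr, Cdh5, Tie1 and Tek run alike in the 3 genotypes, whereas those of S1pr3 stand at 3.13, 1.97 and -0.02; ESC means under the floor make several bars a difference from an unmeasured level.

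EBs of each knockout were compared with EBs of WT, HP1βKO first. Of the 10 genes, 3 were higher (Kdr, Emcn and S1pr3), where 9.42% of all genes were, and 4 were lower (Flt1, Cdh5, Tek and Edn1), where 9.36% were. By another rule, a difference of at least 1.5-fold in every pair of arrays, which is one reading of the pairwise selection in the methods, 2 passed, S1pr3 upwards and Flt1 downwards, against 5.48% of all genes in either direction. In HP1αKO 4 were higher than in WT (Emcn, Tek, Edn1 and S1pr3), where 7.04% of all genes were, and 2 lower (Flt1 and Nrp1), where 5.09% were. By the 1.5-fold rule 4 passed there, Emcn, Edn1, S1pr3 and Nrp1, against 3.54% of all genes. The median of the 10 differences was -0.26 for HP1βKO and 0.30 for HP1αKO, against -0.01 and 0.03 over all genes. Both comparisons share the EB WT arrays. Emcn and Edn1 were tested only because knockout EB arrays passed the floor, so their calls as higher were built in. Counts and medians that include them cannot be read against the values over all genes. The call of Edn1 as lower in HP1βKO compares groups that were both under the floor.

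S1pr3 changed most in HP1βKO. It held 8.23 and 8.22 in EB HP1βKO and 7.21 and 7.01 in EB HP1αKO, against 5.60 and 5.57 in EB WT. The 3 groups did not overlap, and WT lay just over the floor. S1pr3 was 6.24-fold higher in HP1βKO than in WT (2.64 ± 0.10, adjusted p = 1.06e-05) and 2.88-fold higher in HP1αKO (1.53 ± 0.10, adjusted p = 0.000176). Flt1 went the other way in both knockouts, with 6.77 and 6.73 in EB HP1βKO and 7.08 and 7.13 in EB HP1αKO, against 7.50 and 7.61 in EB WT. It fell 1.75-fold in HP1βKO (adjusted p = 0.000677) and 1.37-fold in HP1αKO (adjusted p = 0.0142), without overlap of the groups. The HP1αKO call was lost without EB HP1αKO 1 (adjusted p = 0.143), EB HP1αKO 2 (adjusted p = 0.105) or EB WT 2 (adjusted p = 0.0616).

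Edn1 separated the knockouts. It held 3.61 and 3.80 in EB HP1βKO and 6.38 and 6.29 in EB HP1αKO, against 4.21 and 4.44 in EB WT. Only HP1αKO was above the floor, at least 1.79-fold higher than WT, and the fitted difference was 2.01 ± 0.11 (adjusted p = 0.000117). In HP1βKO the fitted difference was -0.62 ± 0.11 (adjusted p = 0.0081), but both groups were under the floor and no fold is given. Emcn held 5.96 and 5.36 in EB HP1βKO and 6.67 and 6.71 in EB HP1αKO, against 4.75 and 5.00 in EB WT, where it was under the floor. It was at least 1.12-fold higher in HP1βKO (0.78 ± 0.19, adjusted p = 0.0251) and at least 2.29-fold higher in HP1αKO (1.81 ± 0.19, adjusted p = 0.00117). Without EB WT 1 the HP1βKO call was lost (adjusted p = 0.091).

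The receptors of VEGF and of angiopoietins moved by less than 2-fold. Kdr held 9.20 and 9.12 in EB HP1βKO, against 8.66 and 8.77 in EB WT, and was 1.36-fold higher (0.45 ± 0.09, adjusted p = 0.0128). Its difference in HP1αKO was 0.16 ± 0.09 (adjusted p = 0.306). Nrp1 was 1.99-fold lower in HP1αKO, with 9.42 and 9.47, against 10.34 and 10.53 in EB WT (adjusted p = 0.00158). In HP1βKO the difference was -0.28 ± 0.11 (adjusted p = 0.114).

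Tek held 7.64 and 7.50 in EB HP1βKO and 8.59 and 8.49 in EB HP1αKO, against 7.98 and 8.08 in EB WT. It fell 1.38-fold in HP1βKO (adjusted p = 0.0141) and was 1.42-fold higher in HP1αKO (adjusted p = 0.0137), and the 3 groups did not overlap. Tie1 held 7.00 and 6.77 in EB HP1βKO and 7.43 and 7.50 in EB HP1αKO, against 7.14 and 7.09 in EB WT. Its differences of -0.23 ± 0.10 (adjusted p = 0.154) and 0.35 ± 0.10 (adjusted p = 0.0648) did not pass.

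Of the junction genes Cdh5 and Pecam1, Cdh5 fell 1.53-fold in HP1βKO, with 7.52 and 7.18 in EBs, against 7.81 and 8.12 in EB WT (-0.61 ± 0.14, adjusted p = 0.0227). In HP1αKO its difference was -0.30 ± 0.14 (adjusted p = 0.22). Pecam1 differed by 0.32 ± 0.10 in HP1βKO (adjusted p = 0.0551) and 0.26 ± 0.10 in HP1αKO (adjusted p = 0.122). Single arrays decided several of these smaller calls. Cdh5 and Tek in HP1βKO were lost without EB HP1βKO 2 (adjusted p = 0.0889 and 0.0602) or without EB WT 2 (adjusted p = 0.0921 and 0.0629), and Kdr without EB WT 1 (adjusted p = 0.0573). Tek in HP1αKO was lost without EB HP1αKO 1 (adjusted p = 0.139), EB HP1αKO 2 (adjusted p = 0.0755) or EB WT 1 (adjusted p = 0.0623). With the spread taken from all 12 arrays, 1 gene passed in HP1βKO (S1pr3) and 3 in HP1αKO (Emcn, Edn1 and S1pr3).

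**Figure D3:**
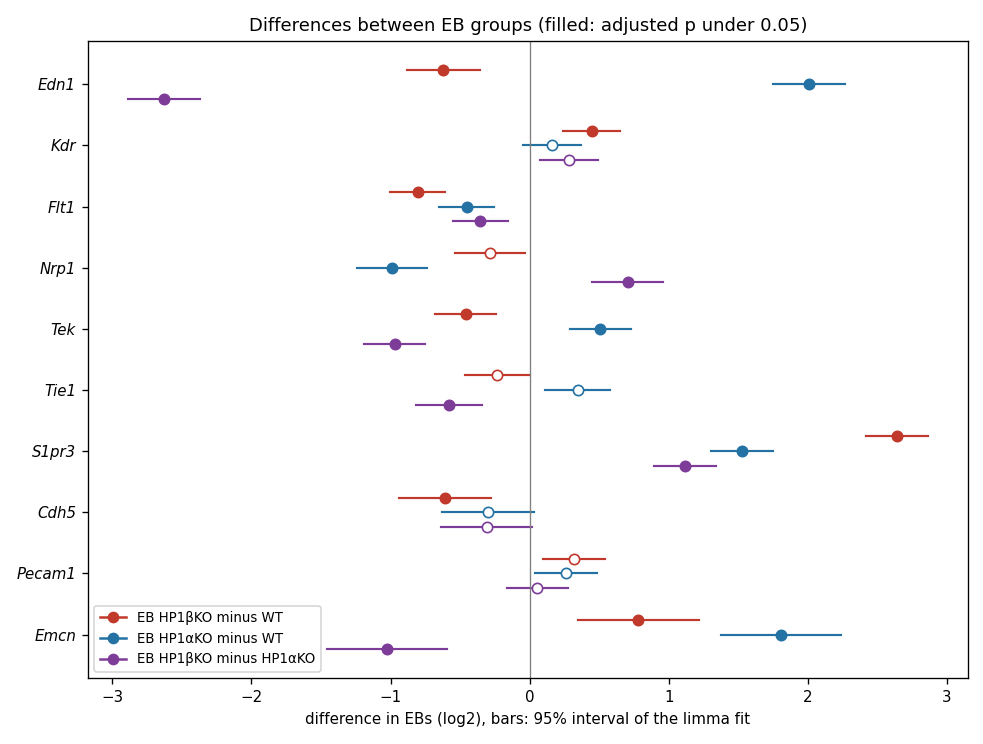
Log2 differences between EB groups for each gene, with 95% intervals of the limma fit on the 6 EB arrays; filled points passed an adjusted p of 0.05 over all 10880 genes. Edn1 lies at -0.62 for HP1βKO minus WT, where both groups were under the floor, and at 2.01 for HP1αKO minus WT. S1pr3 lies right of 0 in all 3 comparisons.

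The knockouts were also set against each other in EBs. In HP1βKO 2 of the 10 genes were higher than in HP1αKO (S1pr3 and Nrp1), where 8.3% of all genes were, and 5 were lower (Edn1, Emcn, Tek, Tie1 and Flt1), where 11.6% were. By the 1.5-fold rule 4 passed (S1pr3, Emcn, Tek and Edn1), against 6.54% of all genes. Edn1 was tested only because EB HP1αKO passed the floor, so its place in both counts was built in. S1pr3 was 2.17-fold higher in HP1βKO than in HP1αKO (adjusted p = 0.000198) and Nrp1 1.63-fold higher (adjusted p = 0.00374). Edn1 was at least 1.79-fold higher in HP1αKO (fitted difference -2.63 ± 0.11, adjusted p = 7.76e-06), with both HP1βKO arrays under the floor. Emcn, with 1 of 2 HP1βKO arrays under the floor, was 2.04-fold lower in HP1βKO (adjusted p = 0.00779), Tek 1.96-fold (adjusted p = 0.000396) and Tie1 1.49-fold (adjusted p = 0.00629). Tie1 was lost without EB HP1αKO 2 (adjusted p = 0.0652). Flt1, 1.28-fold lower (adjusted p = 0.0241), was lost without EB HP1βKO 2 (adjusted p = 0.0811), EB HP1αKO 1 (adjusted p = 0.132) or EB HP1αKO 2 (adjusted p = 0.183). Kdr, Cdh5 and Pecam1 differed by 0.29, -0.31 and 0.06, and their 95% intervals ran from 0.08 to 0.49, from -0.64 to 0.02 and from -0.16 to 0.28. With the spread taken from all 12 arrays 2 genes passed, Emcn and Edn1, and S1pr3 did not (adjusted p = 0.0722).

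In ESCs 0 of the 10 genes passed in either knockout, and 0% of the 10880 genes did so in either direction (limma). The targeted Cbx1 did not pass either, though it was 3.83-fold lower in ESC HP1βKO than in ESC WT without overlap (unadjusted p = 0.000392, limma). Without the 2 libraries that went against their labels, again 0 of the 10 passed in either comparison. At an unadjusted p under 0.05 there was 1 gene in each comparison, Flt1 in HP1βKO and Edn1 in HP1αKO, among 186 and 17 of all genes. By the 1.5-fold rule 0 members passed in either comparison, against 0.41% of all genes in HP1βKO and 0% in HP1αKO. Flt1 held 7.04 and 6.68 in ESC HP1βKO, against 6.14 and 4.94 in ESC WT, a difference of 1.32 ± 0.50 (adjusted p = 1) with no overlap. The 95% intervals were wide, from -2.20 to 1.29 for Pecam1 and from -1.80 to 1.06 for Tek in HP1βKO minus WT, so differences of several-fold were not detectable with these arrays. Kdr, Cdh5, Emcn, Tie1, Nrp1 and Edn1 lay under the floor on all 6 ESC arrays.

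Whether a knockout effect differed between EBs and ESCs was tested directly. In HP1βKO 1 of the 10 genes passed with a larger effect in EBs, S1pr3, where 0.616% of all genes did, and 0 passed with a lower one, where 0.68% did. Its difference between the 2 effects was 3.15 ± 0.40 (adjusted p = 0.00566), from 2.64 in EBs and -0.51 in ESCs. The ESC effect has no measured size, because ESC HP1βKO was under the floor (mean 5.09) and ESC WT averaged 5.60, just over it. EB WT, at a mean of 5.58, lay just over the floor too. Without the 2 ESC libraries named above, with 1 array left in ESC WT, the S1pr3 difference was 3.60. At an unadjusted p under 0.05 there were 6 of the 10, among 11.2% of all genes. They were Kdr, Flt1, Cdh5, Emcn, Edn1 and S1pr3. Kdr, Cdh5, Emcn and Edn1 were under the floor in all ESC arrays, and Emcn and Edn1 were tested only through knockout EB arrays. The count of 6 therefore cannot be read against the share over all genes. Edn1 (-1.05, adjusted p = 0.0556) and Flt1 (-2.13, adjusted p = 0.133) did not pass. Without those libraries, with 1 array left in ESC WT, their differences were -1.22 and -1.52. A single array left out added 1 gene to S1pr3: Emcn without EB HP1βKO 2 (adjusted p = 0.042), Flt1 without ESC WT 1 (adjusted p = 0.0179) and Edn1 without the library labelled ESC WT 2 (adjusted p = 0.0257).

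In HP1αKO 2 of the 10 passed with a larger effect in EBs, Emcn (2.19 ± 0.28, adjusted p = 0.0146) and Edn1 (1.49 ± 0.21, adjusted p = 0.0307), where 0.175% of all genes did, and 0 passed with a lower one, where 0.0551% did. Both genes were under the floor in all ESC arrays, so the ESC effects of -0.38 and 0.52 are differences between unmeasured levels. Both entered the test only through knockout EB arrays, so a larger effect in EBs was built in. Their count cannot be read against the share over all genes. Without the 2 ESC libraries, with 1 array left each in ESC WT and ESC HP1αKO, the differences were 2.20 for Emcn, 1.33 for Edn1 and 2.13 for S1pr3. Without EB HP1αKO 1, EB HP1αKO 2, EB WT 1 or the library labelled ESC HP1αKO 2, both calls were lost, with adjusted p between 0.0628 and 0.217. Without EB WT 2 or ESC HP1αKO 1, Edn1 alone was lost (adjusted p = 0.0913 and 0.0553), and without the library labelled ESC WT 2 S1pr3 was added (adjusted p = 0.0198).

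Other genes of the same pathways were described from fixed lists, with log2 differences from WT in EBs in parentheses, or a lower bound where 1 group was under the floor. The shares to set beside their counts are those over all genes, 9.42% higher and 9.36% lower in HP1βKO and 7.04% and 5.09% in HP1αKO. Of 12 ligands of vessel growth tested in EBs, 2 were higher in HP1βKO than in WT, Angpt2, a context-dependent ligand of Tek (at least 1.75-fold), and Pgf, a ligand of Flt1 (0.47 ± 0.11). In HP1αKO 5 were higher, among them Sema3a (0.90), Pgf (0.74), Sema3e (at least 1.23-fold) and Vegfd (at least 1.11-fold), and 0 were lower in either knockout. Of 15 further endothelial receptors, 2 were higher in HP1βKO, Nrp2 (0.90) and Cd93 (0.51), and 2 lower, Calcrl (-0.97) and Aplnr (-0.45). In HP1αKO 4 were higher, Cd93 (1.00), Plxnd1 (0.72), Ramp2 (0.51) and Stab1 (at least 1.13-fold), and 0 lower.

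Of 18 further junction and surface genes, 5 were higher in HP1βKO and 2 lower, Ctnnd1 (-0.44) and Tjp1 (-0.35). Among the higher were Cldn5, a tight-junction claudin of endothelium (1.26), Mcam (0.64), Cd34 (0.55) and Icam1 (at least 1.32-fold). The other was Gja5, named here because both group means were under the floor (4.95 in HP1βKO and 4.57 in WT), so its difference has no measured size. In HP1αKO 7 were higher, among them Gja5, a connexin of arteries and of heart muscle (at least 3.63-fold), Cd34 (1.58), Mcam (1.16) and Gja4 (1.10), and 0 were lower. Of 19 transcription factors of endothelium and blood-forming endothelium, 3 were higher in HP1βKO, Nr2f2 (0.92), Klf2 (0.87) and Ets1 (0.78), and 9 lower, among them Hey2 (-1.08, with 1 of 2 HP1βKO arrays under the floor), Sox17 (-0.82), Hhex (WT at least 2-fold higher) and Etv2 (WT at least 1.21-fold higher). In HP1αKO 5 were higher, among them Foxc2 (1.45, with 1 of 2 WT arrays under the floor), Hey1 (1.32), Nr2f2 (0.80) and Foxc1 (0.77), and 3 were lower, Tal1 (-0.49, with 1 of 2 HP1αKO arrays under the floor), Runx1 (-0.41) and Sox17 (-0.38). The medians over the transcription factors were -0.43 in HP1βKO and 0.00 in HP1αKO, against the medians of -0.01 and 0.03 over all genes.

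The pathways of Edn1 and S1pr3 were thinly measured. Of 3 other endothelin genes tested 0 passed in HP1βKO and 2 were higher in HP1αKO, the receptor Ednrb (0.62) and the converting enzyme Ece2 (0.47). Of 6 other genes of the sphingosine 1-phosphate axis 0 passed in HP1βKO, and in HP1αKO Sgpp1, a phosphatase that degrades it, was higher (0.60) and Spns2, its exporter, lower (-0.60).

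Markers of other cell types moved with the knockouts in EBs, and their part in the values above was not tested. The summed signal of 10 cardiomyocyte markers was 774 to 1112 in EB HP1βKO and 13850 to 13970 in EB HP1αKO, against 6774 to 7230 in EB WT. Of 9 tested, 9 were lower in HP1βKO and 7 higher in HP1αKO. Tek ran in that order too, HP1αKO over WT over HP1βKO, and Edn1 was above the floor only in HP1αKO. The sum of 8 fibroblast markers was 6036 to 6643 in EB HP1βKO and 4951 to 5247 in EB HP1αKO, against 2606 to 2802 in EB WT. Of these 8, 7 were higher and 0 lower in HP1βKO, and 6 higher and 1 lower (Pdgfra, -0.41) in HP1αKO, while between the knockouts 3 were higher and 3 lower in HP1βKO. Col3a1, a fibrillar collagen, differed from WT by 2.31 in HP1βKO and 1.57 in HP1αKO on the log2 scale, and S1pr3 was likewise higher in both knockouts.

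The sum of 8 pluripotency markers was 3668 to 3789 in EB HP1βKO and 777 to 869 in EB HP1αKO, against 1603 to 1800 in EB WT, with 7 of 8 higher in HP1βKO and 6 of 8 lower in HP1αKO. Pecam1, which ESCs also carry, was thus measured in EBs that differed in these markers. Of 8 smooth muscle and pericyte markers 6 were tested, with 1 higher and 3 lower in HP1βKO and 3 higher and 1 lower in HP1αKO. The sum of 7 primitive erythroid markers was 3366 to 3887 in EB HP1βKO and 3402 to 3849 in EB HP1αKO, against 3913 to 4400 in EB WT. Of these 7, 1 was higher and 4 were lower in each knockout. In HP1αKO the globins went both ways, Hbb-bh1 by -1.28 and Hbb-y by 1.26 (log2). Visceral endoderm markers ran 0 higher and 3 lower of 6 tested in HP1βKO and 2 higher and 3 lower in HP1αKO, and neuronal markers 0 higher and 4 lower of 6 and 1 each way. Of 8 markers of other blood cells, Ptprc among them, 7 lay under the floor on all 12 arrays. In ESCs the fibroblast sum was 265 to 1614 in WT, the widest span of any group. Between the same arrays Flt1 and S1pr3 were higher in WT 1, whereas Pecam1 and Tek were higher in the library labelled WT 2. A link with the fibroblast sum was not tested.

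**Figure D4:**
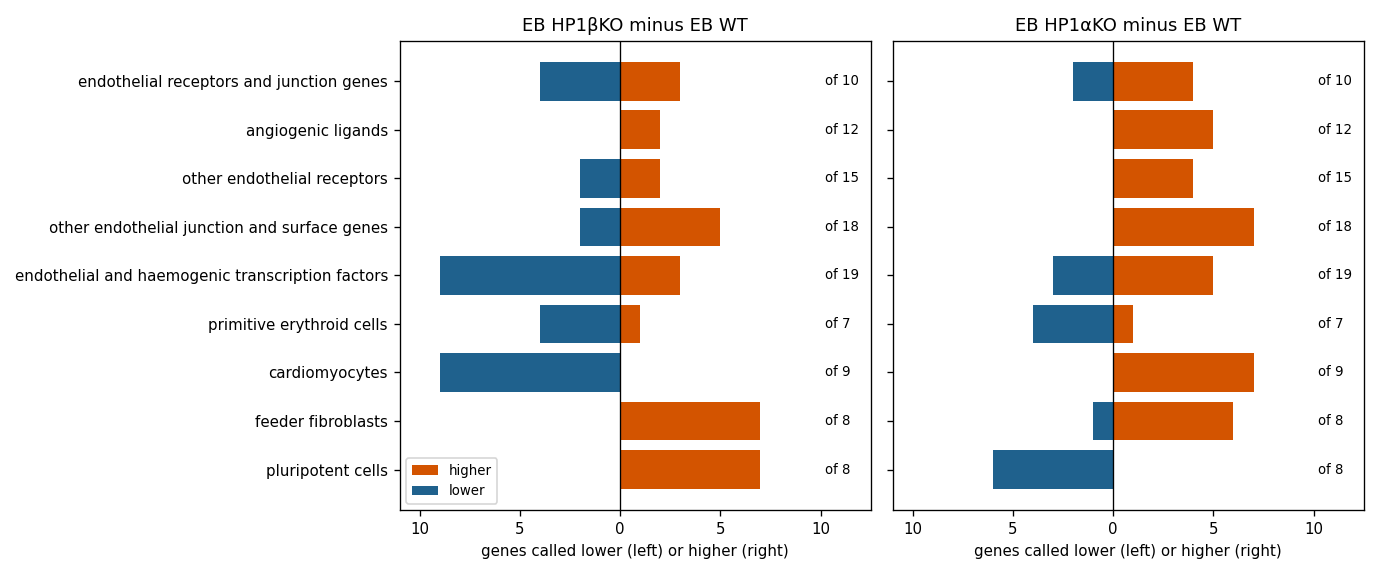
Number of genes called lower (left of 0) or higher (right of 0) in EBs of HP1βKO and HP1αKO against WT, for the 10 genes and for 8 other lists, with the number tested at the right. Endothelial transcription factors run 9 lower and 3 higher in HP1βKO, and 3 lower and 5 higher in HP1αKO. Some calls, such as those of Edn1 and Gja5 in HP1βKO, compare groups whose means were both under the floor.

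The genes with the most similar profiles over the 12 arrays were found by the root mean square difference of log2 values after each gene's own mean was subtracted, as a description. Tie1 lay nearest to Ramp2 (0.17), Slc18a2 (0.20) and Esam (0.22). Edn1 lay nearest to Plppr5 (0.19), Myl2 (0.28), a myosin light chain of heart ventricle, and Vsnl1 (0.31). Cdh5 had Klhl6 (0.23), Tgfb2 (0.25) and Hsd11b2 (0.27), and Nrp1 had the embryonic globins Hba-x (0.25) and Hbb-bh1 (0.39), then Ttr (0.49). S1pr3 lay nearest to Dkk2 (0.25), Alcam (0.29) and Cyp1b1 (0.32), Kdr to Meis2 (0.26), Meis1 (0.38) and Igfbp5 (0.38), and Pecam1 to Lama1 (0.26), Atp1b1 (0.28) and Tmem35b (0.29). Flt1 had Sox17 (0.28), Ptbp2 (0.37) and Stxbp6 (0.37), Emcn had Cd34 (0.32), Afp (0.36) and Bves (0.40), and Tek had Acer2 (0.35), Ptch1 (0.42) and Sox18 (0.45). The points of each profile share the split between EBs and ESCs, so genes that only separate the states also score as similar.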

How the data were processed

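The authors hybridised biotin-labelled RNA to 1-colour Affymetrix arrays and deposited log2 signals, per the submitters' processing notes made with RMA (background correction, quantile normalization, summarization) in Affymetrix Expression Console, with no version named. RMA brings arrays to 1 distribution, so a level is relative to the other genes of an array, and precision is limited by 2 arrays per group. Feature identifiers matched the annotation of the Mouse Gene 1.0 ST array, whereas the study's methods name an exon array. Of 35556 features, 21789 carried 1 gene symbol and were used.

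Genes above the floor on at least 1 array (signal 45, the background of the study's methods) entered limma (version 3.58.1, R 4.3.3), two-sided, with Benjamini-Hochberg adjustment over all 10880. Comparisons within EBs or ESCs used the 6 arrays of that state, the others all 12. A fold against a group under the floor on both arrays is a bound, the brighter mean over the floor. The test was checked on simulated data. Alternatives were another floor or none, centred arrays, array weights, the mean of a gene's features, a replicate block, other sets of arrays, the 1.5-fold rule and leaving out arrays. A block with crossed numbers was added after seeing the data.

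Members, lists and alternatives were chosen with earlier results of these data known. Named genes are all members and up to 4 each way of a pathway list by size of difference. Also named are the 3 nearest non-member profiles per member, the targeted genes and examples of marker lists.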

Additional observations from a re-analysis of the deposited data

Results flagged for a closer look

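For 3 genes a test of whether the effect of a knockout differed between EBs and ESCs passed (limma, 12 arrays, adjusted over all genes). For S1pr3 the difference of HP1βKO minus WT was larger in EBs by 3.15 ± 0.40 on the log2 scale (adjusted p = 0.00566). In ESCs that difference has no measured size, because ESC HP1βKO was under the floor and ESC WT averaged just over it. For Emcn the difference of HP1αKO minus WT was larger in EBs by 2.19 ± 0.28 (adjusted p = 0.0146), and for Edn1 by 1.49 ± 0.21 (adjusted p = 0.0307). Emcn and Edn1 were under the floor in all ESC arrays and in EB WT and entered the test only through knockout EB arrays, so their sizes and p-values rest on unmeasured levels in 3 of the 4 groups and carry no weight as evidence of a difference between the states. No group had the 4 arrays that a test for an outlying array needs.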

How the results depend on the processing

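The number of the 10 genes called depended most on where the spread was taken from. With all 12 arrays in 1 fit it was 1 for EB HP1βKO against WT, 3 for EB HP1αKO against WT and 2 for EB HP1βKO against HP1αKO, in place of 7, 6 and 7, and over all genes 353, 135 and 406 in place of 2043, 1320 and 2167. By the rule of 1.5-fold in every pair of arrays it was 2 for HP1βKO and 4 for HP1βKO against HP1αKO, and over all genes 555, 355 and 666 in those 3 comparisons. With arrays centred on their median 9 passed for HP1βKO (Pecam1 and Nrp1 added) and 8 between the knockouts (Kdr added). Leaving out 1 array gave 5 to 7 genes for HP1βKO, 4 to 5 for HP1αKO and 5 to 7 between the knockouts.

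For the difference of the HP1βKO effect between EBs and ESCs, 2 genes passed with arrays centred on their median, 2 with array weights and 3 without the 2 ESC libraries whose Cbx5 level opposed their labels, in place of 1, and 1 to 2 passed when 1 array was left out. For HP1αKO 1 passed with a floor of 100 (which removed Edn1), 0 with array weights and 1 with the compared groups only, in place of 2, and 0 to 3 when 1 array was left out. The difference of Pecam1 between EB WT and ESC WT, 0.03, was -0.10 with centred arrays, -0.04 without EB WT 2, and from -1.09 without ESC WT 1 to 1.14 without ESC WT 2. That of S1pr3, -0.02, was 0.43 without ESC WT 1 and -0.47 without ESC WT 2. The cause was not tested. A fit without 1 array, or without the 2 libraries, leaves 1 array in a group. Its counts show only how far single arrays carry the calls.

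Only 2 replicate numbers existed, so pairing could not be established. Correlations of same-numbered deviations were 0.30 to 0.50 among ESC groups and -0.45 to 0.11 among EB groups. With a replicate block, 7, 6 and 6 genes passed in the 3 EB comparisons (Flt1 was lost between the knockouts, adjusted p = 0.061), 863 of all genes in place of 1320 for HP1αKO, and 3 genes in each test of the difference between EBs and ESCs. The block also moved Pecam1 in EB HP1βKO minus ESC HP1βKO to 1.44 (adjusted p = 0.0199), in place of 0.80 (adjusted p = 0.312). With the numbers of EB HP1βKO crossed, an alternative chosen after seeing the data, 9 of the 10 and 2748 of all genes passed against WT.

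With 2 arrays per group, the calls near the threshold rested on single arrays. Levels under the floor, which held for Emcn and Edn1 in most groups, have no measured size.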
